A study of Mus musculus with 6 samples.

Results

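Klhdc8a, Wfdc1, Aqp5, Klra4, Fxyd5, Nppb and Tnnt2 are 7 of the 54446 genes listed in 6 libraries of mouse glioma cultures, made from droplets that each held a cell or a nucleus (the labels do not say which, and called droplets are named cells here). They were chosen by name because cultures of the line GL261 express them and cultures of GL261-GSCs almost do not. The values that chose them are the levels in these same libraries, so the difference between the groups is given below as a description, with no test. GL261 is an established mouse glioma line, and its 2 libraries came from cells kept in a differentiation medium with fetal calf serum. The 4 GL261-GSCs libraries came from cultures derived from GL261, labelled glioblastoma stem cells and kept in a defined stem cell medium, in part as neurospheres by the dissociation protocol. No genotype, drug or time point separates the groups, so medium, growth form and history of the cultures cannot be told apart, and nothing in the labels says that libraries of a group came from separate cultures. Spread between libraries may therefore be technical.

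The 7 genes are best known from several tissues, 2 of them from heart muscle. Nppb encodes B-type natriuretic peptide, a hormone that stretched heart muscle releases and that signals through the receptor Npr1. Tnnt2 encodes cardiac troponin T, the subunit that fastens the troponin complex to tropomyosin on the thin filament of heart muscle. Wfdc1 encodes a secreted protein with a whey acidic protein domain, originally studied in prostate stroma. Aqp5 encodes a water channel of gland and lung epithelium. Fxyd5, or dysadherin, is a small membrane protein that associates with the sodium pump and lowers cell adhesion. Klra4 encodes Ly49D, an activating receptor of mouse natural killer cells that signals through the adapter Tyrobp. Klhdc8a encodes a kelch repeat protein that has been studied in human glioblastoma.

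Cells were called from barcodes by their number of unique molecular identifiers (UMIs, each standing for 1 captured RNA molecule). Between 4264 and 7275 cells were called per library, holding 33320530 to 79472306 UMIs. Median depth was 15477 and 13651 UMIs per cell in GL261 and between 6670 and 15374 in GL261-GSCs, with GL261-GSCs replicate 4 the shallowest. Levels are UMIs per 1000000 UMIs of the called cells (CPM), with library sizes scaled by edgeR. Intervals and floors in the text cover counting error only. The libraries are 5' libraries, so a level is not comparable between genes, and the order of the 7 genes by level has no meaning.

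All 7 are protein-coding genes, and coordinates are those of mouse GENCODE M21 on GRCm38. Nppb (ENSMUSG00000029019.8) spans chr4:147985788-147987205 on the plus strand, and Tnnt2 (ENSMUSG00000026414.13) spans chr1:135836354-135852260 on the plus strand. Klhdc8a (ENSMUSG00000042115.4) lies on the same chromosome at chr1:132298626-132307357, also on the plus strand. Wfdc1 (ENSMUSG00000023336.6) spans chr8:119666365-119688222 on the plus strand, and Aqp5 (ENSMUSG00000044217.17) spans chr15:99590782-99594829 on the plus strand. Klra4 (ENSMUSG00000079852.4) spans chr6:130043731-130067271 on the minus strand, and Fxyd5 (ENSMUSG00000009687.14) spans chr7:31032722-31042481 on the minus strand. An antisense gene, Gm32352, overlaps the start of Wfdc1 and had 41 UMIs over all libraries, and the annotated microRNA Mir7050 lies within Fxyd5.

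The sequence before the RefSeq start is shown for 4 of the 7 genes. Nppb and Tnnt2, the heart genes, are shown because they share a pair of words, and Klra4 and Aqp5 because they are the poorest and the richest in CpG dinucleotides. Each run holds the 250 bases before the RefSeq gene start on GRCm38.p6, 5′ to 3′ on the strand of the gene. The windows are chr4:147985650-147985899 for Nppb, chr1:135836084-135836333 for the upstream of the 2 listed starts of Tnnt2, chr6:130067272-130067521 (minus strand) for Klra4 and chr15:99590778-99591027 for Aqp5. Capitals mark the words searched for, on either strand: GGAATG (bound by TEAD factors), AGATAA (bound by GATA factors), TATAAA and GGGCGG (a GC box).
Nppb: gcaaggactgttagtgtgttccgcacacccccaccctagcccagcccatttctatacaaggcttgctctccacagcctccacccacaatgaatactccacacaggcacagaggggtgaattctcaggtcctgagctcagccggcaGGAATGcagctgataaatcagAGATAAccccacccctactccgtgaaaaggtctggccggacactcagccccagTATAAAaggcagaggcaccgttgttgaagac
Tnnt2: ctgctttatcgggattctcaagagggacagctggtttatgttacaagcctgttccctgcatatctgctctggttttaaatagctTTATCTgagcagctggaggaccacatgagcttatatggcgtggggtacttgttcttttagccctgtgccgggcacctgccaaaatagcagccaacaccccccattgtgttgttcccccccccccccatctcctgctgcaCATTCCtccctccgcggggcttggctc
Klra4: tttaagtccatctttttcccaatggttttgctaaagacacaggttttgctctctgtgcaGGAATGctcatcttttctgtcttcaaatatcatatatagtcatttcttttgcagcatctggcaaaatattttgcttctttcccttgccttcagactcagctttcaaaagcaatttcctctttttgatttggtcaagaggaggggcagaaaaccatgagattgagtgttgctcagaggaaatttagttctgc
Aqp5: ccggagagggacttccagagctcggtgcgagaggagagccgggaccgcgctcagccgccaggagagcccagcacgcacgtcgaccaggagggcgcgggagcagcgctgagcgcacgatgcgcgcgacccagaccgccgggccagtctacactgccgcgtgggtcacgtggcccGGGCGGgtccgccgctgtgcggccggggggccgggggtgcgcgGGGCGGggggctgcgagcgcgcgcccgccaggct
In Nppb, GGAATG stood at position -105, AGATAA at -84 and TATAAA at -31 from the gene start. In Tnnt2, the reverse complement CATTCC stood at -27 and TTATCT at -166. The window of the downstream start of Tnnt2 held none of the searched words. How many promoters hold both words was not counted. In Klra4, GGAATG stood at -191. These words are common: over windows from 250 bases before to 50 after the start, 14.7% of 32851 RefSeq promoters hold GGAATG, 11.2% hold AGATAA and 13.6% hold TATAAA. The GC box occurred in 35.7% of promoters, at 1 place in that of Klhdc8a and at 3 places in that of Aqp5, of which 2 are in the run above. TGANTCA, the AP-1 word found in 7.81% of promoters, and the CArG box, found in 1.63%, were in none of the 7 windows of the 6 genes with an entry. The windows held 46 CpG dinucleotides in Aqp5 (98.6% of promoters have as many or fewer), 15 in Klhdc8a, 7 in Nppb, 6 in Fxyd5, 5 and 1 at the upstream and downstream starts of Tnnt2 and 0 in Klra4, against a median of 7. So the 6 genes with an entry have no searched word in common in these windows, and their promoters run from CpG-rich to CpG-free. RefSeq entries were found for 6 of the 7 genes, all but Wfdc1. The GENCODE starts of Aqp5 and Nppb given above lie upstream of the RefSeq starts, so nearly all of the Aqp5 run and the marked words of Nppb fall inside the genes as GENCODE draws them.

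In the called cells, each gene lay far lower in all 4 GL261-GSCs libraries than in both GL261 libraries. The plot of levels by library shows the gap on a log axis.

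**Figure D1:**
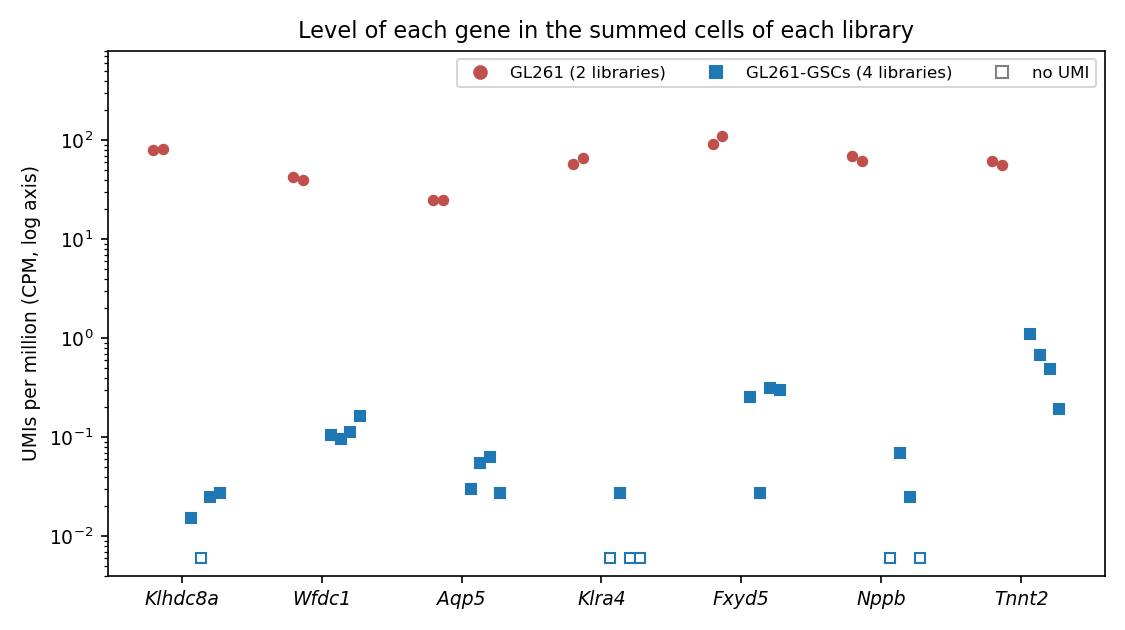
Level of each of the 7 genes in the summed called cells of each library, in CPM on a log axis, with 1 point per library; open squares at the bottom stand for libraries with no UMI. GL261 points lie between 24.7 and 109 CPM and GL261-GSCs points at 1.09 CPM or below.

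Nppb stood at 69.4 and 61.7 CPM in GL261 (4686 and 3724 UMIs). In GL261-GSCs replicates 1 to 4 it had 0, 5, 2 and 0 UMIs, or 0, 0.069, 0.025 and 0 CPM. In CPM the GL261 level was 2394 times the GL261-GSCs level (95% counting interval 1161 to 5955). That ratio rested on replicate 2: without that library it was 5995. Wfdc1, the other secreted product, stood at 42.9 and 40.1 CPM in GL261 (2899 and 2418 UMIs). Its GL261-GSCs libraries had 7, 7, 9 and 6 UMIs, between 0.0966 and 0.165 CPM. The ratio was 365 (254 to 546), and no library stood apart.

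Among the 3 membrane proteins, Klra4 was the nearest to complete absence. It stood at 58 and 65.5 CPM in GL261 (3914 and 3953 UMIs), and had 2 UMIs in GL261-GSCs, both in 1 cell of replicate 2. The ratio was 7837 (2169 to 64720), and without replicate 2, where no UMI is left, GL261 was at least 3739-fold higher, against a floor of 3 UMIs over the group. Aqp5 stood at 24.7 and 24.8 CPM in GL261 (1664 and 1496 UMIs) and had 2, 4, 5 and 1 UMIs in GL261-GSCs, for a ratio of 525 (299.9 to 1016). Fxyd5 stood at 90.5 and 109 CPM in GL261 (6111 and 6577 UMIs). Its GL261-GSCs libraries had 17, 2, 25 and 11 UMIs, or 0.258, 0.0276, 0.313 and 0.302 CPM, so replicate 2 lay lower than the other libraries. The ratio was 459.6 (352.9 to 610.5).

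Of the proteins inside the cell, Klhdc8a stood at 79.9 and 81 CPM in GL261 (5392 and 4888 UMIs). It had 1, 0, 2 and 1 UMIs in GL261-GSCs, and its ratio was 5120 (1999 to 18800). Tnnt2 stood at 61.4 and 56.7 CPM in GL261 (4143 and 3423 UMIs). It had more UMIs in GL261-GSCs than the other 6 genes, with 72, 49, 39 and 7 UMIs, or 1.09, 0.676, 0.488 and 0.192 CPM in replicates 1 to 4. The ratio was 90.3 (77.4 to 106), and 118 without replicate 1. For every one of the 7, the lower GL261 library exceeded the highest GL261-GSCs library at least 51.9 times, the value for Tnnt2. Of the 6840 genes with a mean of at least 20 CPM in GL261, 34 had a ratio of at least 100 and 9 of at least 1000. In that ranking Klra4 had rank 5, Klhdc8a 6, Nppb 8, Aqp5 15, Fxyd5 17, Wfdc1 18 and Tnnt2 36, so other genes lie between and above them.

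UMIs of the 7 genes in GL261-GSCs lay mostly 1 to a cell, and no cell held more than 3 of any gene. Some were clumped: Wfdc1 had 3 of its 6 UMIs of replicate 4 in 1 cell. Fxyd5 in replicate 2 and Nppb in replicate 3 each had both UMIs in 1 cell, as did Klra4 in replicate 2. Tnnt2 was seen in 72 of 4264 cells of replicate 1 (1.69%, exact binomial interval 1.32 to 2.12%), 45 of 5870 of replicate 2 (0.767%), 39 of 7275 of replicate 3 (0.536%) and 7 of 4512 of replicate 4 (0.155%). Free RNA, taken from small barcodes of 100 UMIs or more but fewer than 1000, would have put Tnnt2 in 0.068% of cells of replicate 1 and in 0.0252 to 0.0333% of cells of the others, below the seen shares. Fxyd5 was seen in 15, 1, 22 and 10 cells, at most 0.352%, where free RNA would give at most 0.0299%. Nppb was different. In replicate 2 it was seen in 5 cells, a share of 0.0852% against 0.0842% from free RNA, and in replicate 3 in 1 cell, 0.0138% against 0.0302%, so its few UMIs in cells were at the level of background. Outside the called cells, replicate 2 held 60 Nppb UMIs spread over 58 barcodes and replicate 3 held 25 over 23 barcodes, while replicates 1 and 4 held 7 and 1. Over all barcodes the Nppb ratio was accordingly 312 in place of 2394. The ratios of Klhdc8a and Klra4 were 3305 and 4801 over all barcodes, with 10 and 6 UMIs in GL261-GSCs. Klra4 was seen in no cell of replicates 1, 3 and 4, which allows up to 0.0704%, 0.0412% and 0.0665% of cells with a UMI against a floor of 3 cells, at the depths of these libraries.

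Few GL261-GSCs cells carried more than 1 of the 7 genes. There were 4 such cells in all, 2 in replicate 1, 1 in replicate 2 and 1 in replicate 3. A cell of replicate 1 with 17597 UMIs had Wfdc1, Aqp5 and Fxyd5, and it had no UMI of Olig2, a gene of the GL261-GSCs cultures, nor of Ly6a, Tagln or Acta2, genes of GL261. The other 3 cells had 2 to 7 UMIs of Olig2. No GL261-GSCs cell with more than 1 of the genes had a barcode that was also called in a GL261 library. The libraries share 33 to 53 called barcodes between a GL261-GSCs and a GL261 library, and these shared barcodes held 0 to 3 of the 26 to 99 UMIs that the 7 genes had in the cells of each GL261-GSCs library.

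In GL261, none of the genes was seen in every cell. Fxyd5 was seen in 58.5% (57.1 to 59.9%) and 62.2% (60.9 to 63.6%) of cells in replicates 1 and 2, and Klhdc8a in 50.9% and 49%. Tnnt2 was seen in 46.1% and 41.7%, Klra4 in 38.5% and 39.7%, Nppb in 38.3% and 35.1%, Wfdc1 in 34% and 29.5%, and Aqp5 in 21.9% and 20.2%. Free RNA would put each gene in at most 4.91% of cells. With each cell thinned to 2000 UMIs the shares dropped to between 3.86% for Aqp5 and 17.2% for Fxyd5, so the shares follow depth and are not counts of expressing cells. Without thinning, 503 of 4808 cells of replicate 1 and 494 of 5002 cells of replicate 2 held no UMI of the 7 genes, and 81 and 54 cells held all 7. GL261-GSCs replicate 1, whose median of 15374 UMIs per cell lies between those of the GL261 libraries, had shares of at most 1.69%.

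Within GL261 the genes were spread less evenly than depth alone would give. No other genes of like level were set beside them, so whether this is particular to the 7 was not tested. If a gene's UMIs were shared out over cells in proportion to depth, Nppb would be seen in 58.8% and 50.4% of cells, and it was seen in 38.3% and 35.1%. The busiest cells held 57 and 23 Nppb UMIs, and 230 and 140 cells held at least 5 where an even spread gives 34.2 and 11.1. Of the 7, Nppb fell furthest short of the even share, at 0.651 and 0.697 of it. The variance of its UMIs per cell was 5.95 and 3.56 times the mean, where an even spread gives 1.18 and 1.12. Fxyd5 and Tnnt2 came nearest to the even share, at 0.868 and 0.842 in replicate 1. For the other genes this proportion lay between 0.729 (Klra4) and 0.802 (Klhdc8a) in replicate 1. It also depends on a gene's level, so it does not order the genes by unevenness alone. All 7 were seen in fewer cells than an even spread would give, in both libraries and also after thinning to 5000 UMIs, as the plot of seen and even shares displays.

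**Figure D2:**
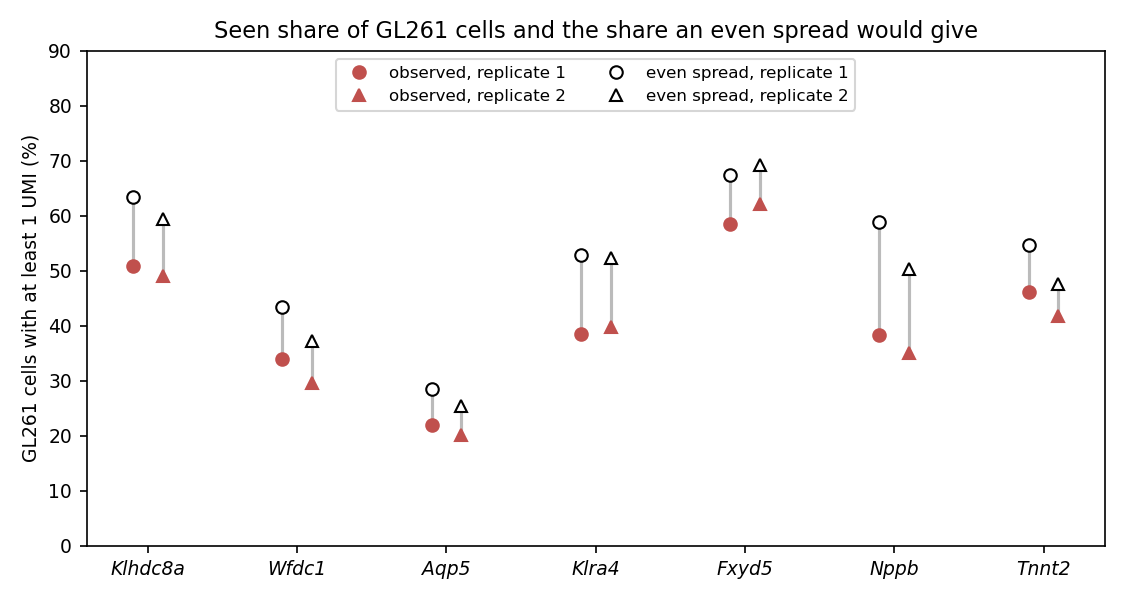
Share of GL261 cells with at least 1 UMI of each gene, in percent, as observed (filled) and as an even spread of the same UMIs by depth would give (open); circles are replicate 1 and triangles replicate 2. Every filled symbol lies below its open partner, with the widest gap for Nppb (38.3% against 58.8% in replicate 1).

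Correlations between the 7 genes from cell to cell were weak, at a depth where counting noise pulls them toward 0. Pearson's r was computed across GL261 cells thinned to 5000 UMIs, on log(1 + UMI), in 4360 cells of replicate 1 and 4515 of replicate 2. Over the 21 pairs the median of the mean r was 0.0277, and 16 pairs lay under 0.05. The highest pairs were Klhdc8a with Nppb (0.12 and 0.0901 in replicates 1 and 2) and Wfdc1 with Aqp5 (0.0999 and 0.102). The lowest was Wfdc1 with Tnnt2 (-0.00634 and -0.0157), the only pair not above 0 in both libraries. Such values are weak, cells of a library share its free RNA, and no p was computed. At 5000 UMIs the variance of UMIs per cell was 1.11 to 1.45 times the mean for the genes other than Nppb. Counting alone gives 1, so most of the spread was counting noise. A low r therefore does not show that the genes vary apart. Without thinning, where cells differ in depth, the median was 0.0942.

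Against summed gene lists, the highest values were those of Klhdc8a and Nppb with YAP targets and of Klra4 with mesenchymal genes. Klhdc8a had an r of 0.191 and 0.169 with a list of 7 YAP target genes and of 0.182 and 0.122 with contractile genes. With mesenchymal genes it had 0.149 and 0.127. Nppb had 0.169 and 0.139 with the YAP targets, 0.166 and 0.114 with mesenchymal genes and -0.0231 and -0.0148 with mitotic genes. Wfdc1 had -0.0509 and -0.00123 with the YAP targets and -0.111 and -0.0943 with mitotic genes, and Aqp5 had -0.00868 and 0.015 with the YAP targets and -0.0599 and -0.0751 with mitotic genes. Klra4 was nearest to the mesenchymal list (0.186 and 0.158), as was Fxyd5 (0.146 and 0.108). Tnnt2 reached at most 0.0904 with any list or property in a library, that with depth. The map of correlations gives all values.

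**Figure D3:**
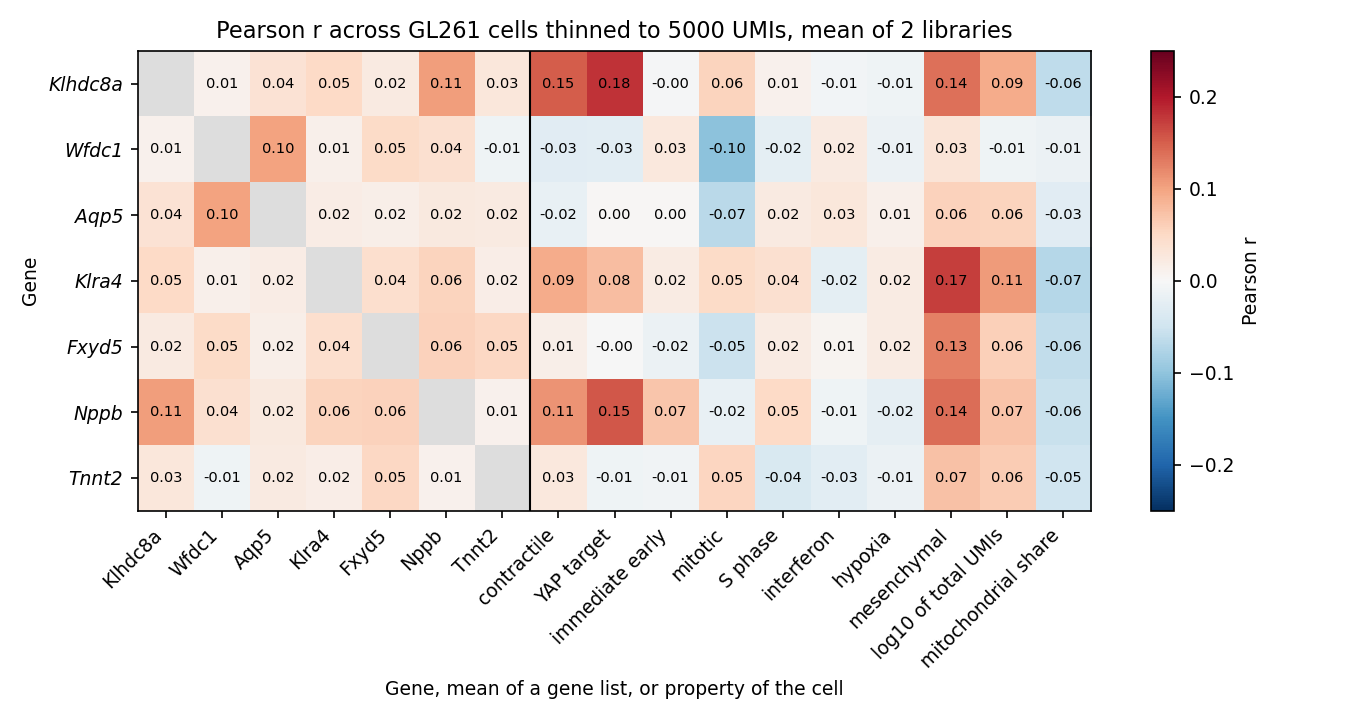
Pearson r across GL261 cells thinned to 5000 UMIs, as the mean of 2 libraries, between each of the 7 genes (rows) and the other 6 or a gene list, the depth or the mitochondrial share of the cell (columns); colour gives r from blue (negative) to red (positive). No square exceeds 0.18, and the darkest are Klhdc8a with YAP targets and Klra4 with mesenchymal genes.

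Counting noise lowers r most for genes with few UMIs, so a ranking by r favours abundant genes. Of 8102 genes seen in at least 5% of GL261 cells, those with the largest mean r were named for each of the 7. For Klhdc8a they were Cyr61 (0.181), a matricellular YAP target, Cnn2 (0.178), an actin-binding calponin, and Hbegf (0.174), an EGF receptor ligand. For Nppb they were Hbegf (0.221), Plaur (0.187), the urokinase receptor, and Cryab (0.175), a small heat shock protein. For Klra4 they were Timp1 (0.22), a metalloproteinase inhibitor, the cyclin Ccnd1 (0.158) and Plaur (0.154). For Wfdc1 they were the tetraspanin Cd9 (0.153), the creatine kinase Ckb (0.136) and the retinoic acid binding protein Crabp2 (0.118). For Aqp5 they were Timp3 (0.0852), Cd9 (0.0721) and the kallikrein Klk8 (0.0709). For Fxyd5 they were Ckb (0.135), Emp3 (0.125) and Timp1 (0.117), and for Tnnt2 Tm4sf1 (0.112), Tmsb10 (0.1) and Tagln2 (0.0957). Several names recur between genes: Hbegf for Klhdc8a and Nppb, Cd9 for Wfdc1 and Aqp5, Ckb for Wfdc1 and Fxyd5, Plaur for Klra4 and Nppb, and Timp1 for Klra4 and Fxyd5.

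To see whether the families of the 7 genes fell with them, GL261-GSCs were compared with GL261 over all genes by the edgeR quasi-likelihood test with Benjamini-Hochberg adjustment. Of 18439 genes tested, 29.9% were called at an adjusted p under 0.05, 15.8% higher and 14.1% lower in GL261-GSCs, and the median gene changed by 0.04 on the log2 scale. Of the calls 53% were higher, against 63.2% with library size as the only scaling, which moved the median by 0.15 and changed the sign of no median among the family and neighbour lists. A gene with few UMIs entered the test only where enough libraries held it, so a gene expressed in 1 group alone enters through that group. Of the called family genes and neighbours named below, Acta1, Aqp1, Fxyd3, Fxyd7, Klra6 and Atp2c2 entered through GL261 alone. Tnnt3, Tnni2, Actc1, Wfdc18, Atp1b1 and Lad1 entered through GL261-GSCs alone. For all of these the filter favoured the direction shown. Folds are given as log2 of GL261-GSCs over GL261 with the standard error of the test. With 2 GL261 libraries, many calls depended on having both: leaving out GL261 replicate 1 or 2 left 1972 and 1817 called genes in place of 5514, with the lone library assumed to vary like the others.

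Of the natriuretic peptide system, 8 genes were listed and 4 tested, 1 rising and 1 falling, with a median log2 change of 0.31. That is 50% called, beside 29.9% of all genes. Nppa, the atrial peptide gene that lies beside Nppb, had 0 UMIs in every library. Nppc, the C-type peptide, rose from 0.593 and 0.928 CPM to between 1.8 and 4.38 CPM (log2 1.84 ± 0.46, SE, adjusted p = 0.0248 by edgeR). Furin, a protease that can cleave the Nppb precursor, fell from 23.9 and 22.9 CPM to between 12.9 and 18.9 CPM (-0.64 ± 0.19, adjusted p = 0.0407 by edgeR). Npr1, the receptor for the Nppb product, stood at 69 and 68.4 CPM in GL261 and at 63.8 to 104 CPM in GL261-GSCs (log2 0.16 ± 0.22, adjusted p = 0.613 by edgeR), so the receptor's groups overlapped while its ligand was near 0. Over the alternatives the adjusted p of Nppc ran to 0.182 (without GL261 replicate 1) and that of Furin to 0.212 (likewise). Without GL261 replicate 2 they were 0.104 for Nppc and 0.189 for Furin, and without GL261-GSCs replicate 1, 2 or 3 Furin had 0.0604, 0.086 and 0.0927. With library size as the only scaling Furin stood at -0.48 (adjusted p = 0.128).

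The thin filament and cardiac sarcomere genes moved in both directions. Of 22 listed, 17 were tested, 4 rising and 7 falling, with a median of 0.72, opposite in sign to the majority of the calls. That is 64.7% called, beside 29.9% of all genes. Of the rises, Tnnt3, Tnni2 and Actc1 entered the test through GL261-GSCs alone, and some falls, Acta1 among them, through GL261 alone. These counts and the median therefore lean on the filter. Of the called genes that could enter through either group, Tnni1 rose, while Tnnc1 and the tropomyosins fell. Among the troponins, which bind calcium and move tropomyosin, 3 other subunits moved opposite to Tnnt2 and 1 fell. Of those 3, only Tnni1 did not enter through GL261-GSCs alone. Tnnt3, the fast skeletal troponin T, had 2 UMIs in GL261 against 931 in GL261-GSCs, a ratio of 234 (64.5 to 1932). Tnni1, the slow skeletal troponin I, rose from 7.94 and 6.71 CPM to between 44.3 and 53.1 CPM (log2 2.73 ± 0.16, adjusted p = 1.2e-04 by edgeR). Tnni2, the fast skeletal troponin I, had 2 and 362 UMIs (ratio 90.8, 25 to 753, with 58.9 without GL261-GSCs replicate 3 and 168 over all barcodes). The cardiac actin Actc1 had 1 and 198 (ratio 99.4, 17.6 to 3945), with a ratio of 52.5 without GL261 replicate 2 and of at least 15.6 without GL261 replicate 1. Tnni3, the cardiac troponin I, had 0 UMIs in GL261 against 8 in GL261-GSCs, so the Tnnt2 RNA of GL261 stood beside no UMI of cardiac troponin I. Tnnc1, the troponin C of heart and slow muscle, fell from 1.7 and 1.41 CPM in GL261 to between 0.497 and 0.849 CPM (log2 -1.31 ± 0.30, adjusted p = 0.0182 by edgeR). Its call was lost without GL261 replicate 1 (0.147), GL261 replicate 2 (0.0934) or GL261-GSCs replicate 3 (0.0515). The largest falls were those of the skeletal actin Acta1 (-4.16 ± 0.41) and the tropomyosins Tpm1 (-2.25 ± 0.39) and Tpm4 (-1.60 ± 0.13). Tpm1 went from 1694 and 2229 CPM to between 259 and 710 CPM and lost its call without GL261 replicate 2 (adjusted p = 0.0615). Actc1 lost its call without GL261 replicate 1 or 2 (0.0679 and 0.0936), while Tnnt3, Tnni1, Tnni2, Acta1 and Tpm4 kept theirs under all 14 alternatives. Of markers of heart muscle cells, the 8 cardiomyocyte markers summed to 0.385 and 0.431 CPM in GL261 and to 1.28 to 3.43 CPM in GL261-GSCs, and Nkx2-5 and Gata4 had no UMI in GL261. In GL261-GSCs replicate 1, the highest, Ryr2 and Actn2 gave 112 and 62 of the 226 UMIs. The other GL261-GSCs libraries had 0 to 3 UMIs of Ryr2, and Nkx2-5 had at most 1 in any library. Pln had 9 and 17 UMIs in GL261 against 4 to 12 in GL261-GSCs.

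**Figure D4:**
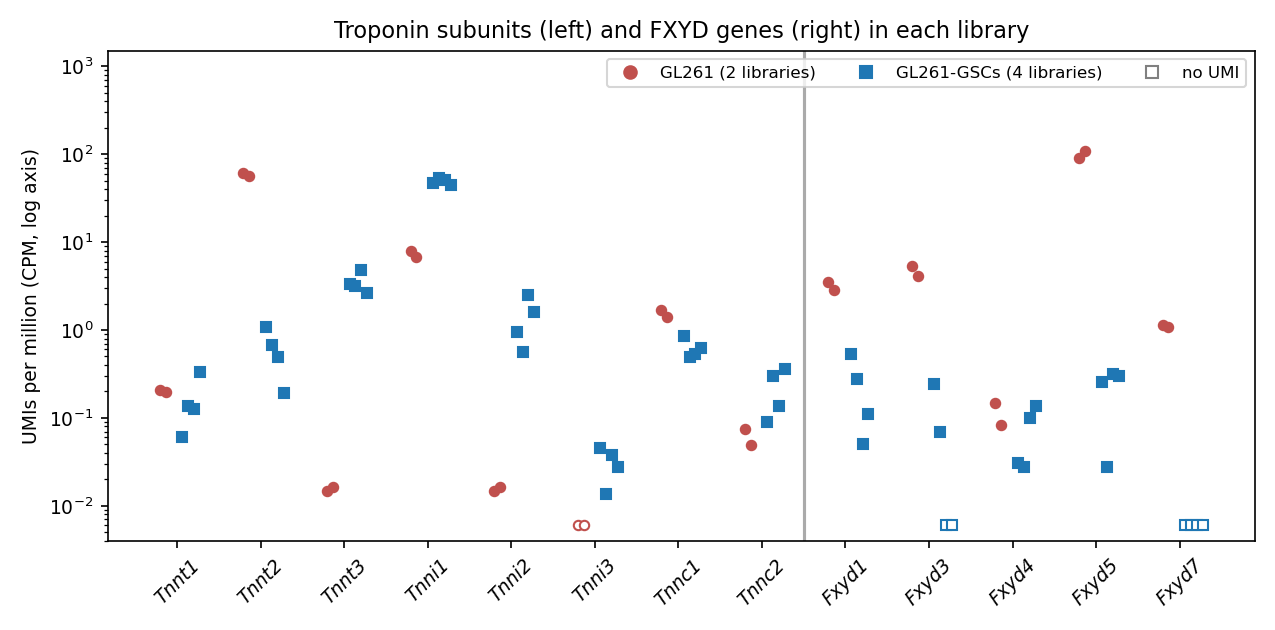
Level of 8 troponin subunit genes (left) and 5 FXYD genes (right) in each library, in CPM on a log axis, with 1 point per library; open symbols stand for no UMI. Tnnt2, Tnnc1, Fxyd1, Fxyd3, Fxyd5 and Fxyd7 lie higher in GL261, and Tnnt3, Tnni1 and Tnni2 lie higher in GL261-GSCs.

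Of the other FXYD genes, whose products tune the sodium pump in different tissues, Fxyd1, Fxyd3 and Fxyd7 were tested and fell, beside 14.1% of all genes. Each of them is higher in GL261, and Fxyd3 and Fxyd7 entered the test through GL261 alone, so their falls do not bear on the family. Fxyd2, Fxyd4 and Fxyd6 had too few UMIs to test. Fxyd7 had 143 UMIs in GL261 against 0 in GL261-GSCs, at least 95-fold lower against a floor of 3 UMIs over the group, and 7 UMIs over all barcodes (ratio 70.4, 33.6 to 177). Fxyd3 fell from 5.39 and 4.09 CPM to between 0 and 0.243 CPM (log2 -5.83 ± 1.04, adjusted p = 0.00729 by edgeR), and Fxyd1 from 3.54 and 2.88 CPM to between 0.05 and 0.531 CPM (-3.70 ± 0.73, adjusted p = 0.0105). Without GL261-GSCs replicate 1, the highest of that group for both, these changes were -7.38 and -4.41. The beta subunit gene Atp1b1 rose (3.45 ± 0.79, adjusted p = 0.0179). Without GL261 replicate 1 only Fxyd7 kept its call, with the others at adjusted p from 0.0506 (Fxyd3) to 0.138 (Atp1b1). Without GL261 replicate 2, Fxyd7 and Fxyd3 kept theirs, and Fxyd1 was at 0.0571 and Atp1b1 at 0.104.

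Of 11 aquaporins other than Aqp5, 4 were tested and 2 called (50%, beside 29.9% of all genes). Aqp1, the water channel of vessels and choroid plexus, had 214 UMIs in GL261 against 1 in GL261-GSCs (ratio 426, 75.7 to 16920, with 206 over all barcodes and at least 105 without GL261-GSCs replicate 1), and Aqp11, an intracellular member, rose from 3.73 and 3.65 CPM to between 10 and 15.5 CPM (log2 1.76 ± 0.23, adjusted p = 0.00225 by edgeR). Aqp4, the aquaporin of astrocytes, had 0 UMIs in every library. Aqp2 and Aqp6, on either side of Aqp5, had 12 and 0 UMIs in GL261, against 0 and 7 in GL261-GSCs. The median change of the tested aquaporins was 1.28. The 7 epithelial markers, which could point to the epithelium where Aqp5 is best known, summed to 3.04 and 1.26 CPM in GL261 and to 13.8 to 89 CPM in GL261-GSCs, where Aqp5 was near 0. Most of the GL261-GSCs sum was Epcam (916 to 6946 UMIs a library, against 87 and 45 in GL261), while Krt8 had 88 and 22 UMIs in GL261 and 5 to 115 in GL261-GSCs, and Krt18, Krt5 and Muc1 had at most 4 in any library.

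Klra4 was nearly alone among receptors of the natural killer gene complex. Of 27 genes, 26 were listed and 1, Klra6, was tested. Klra6, the next gene to Klra4, had 71 UMIs in GL261 against 0 in GL261-GSCs, at least 47.1-fold lower. It entered the test through GL261 alone, and its call was lost without GL261 replicate 1. Klra1, Klra3, Klra7, Klra8, Klra9, Klra10 and Klra17 had 0 UMIs in every library. The longest Klra4 transcript has 1245 bases and is nearest to Klra1 (85% identity over 1249 aligned positions) and at 76.9% to Klra6 over 839. Reads could thus be shared between Ly49 genes, and the sources used here do not say how such reads were assigned. Tyrobp, the adapter that carries Ly49D to the surface and signals for it, had 1 UMI in GL261 and Hcst, another adapter, had 0. Markers of natural killer cells summed to 0.148 and 0.0994 CPM in GL261, with Ncr1, Klrb1c, Prf1, Gzma and Klrd1 at 0. Macrophage and microglia markers summed to 13.1 and 12.9 CPM in GL261 and to 0.192 to 0.364 in GL261-GSCs. Nearly all of it was Csf1r (869 and 763 UMIs), with Ptprc at 1 UMI in each GL261 library.

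Of 19 genes with a whey acidic protein domain other than Wfdc1, 5 were tested, with a median of 0.75. Of these 3 were called (60%, beside 29.9% of all genes). Slpi, a secreted protease inhibitor, fell from 6.9 and 5.58 CPM to between 0.0275 and 1.18 CPM (log2 -3.59 ± 0.89, adjusted p = 0.0241 by edgeR, and log2 -4.37 without GL261-GSCs replicate 1). Wfdc3 rose (2.16 ± 0.57, adjusted p = 0.0302 by edgeR, and 2.89 without GL261 replicate 1), and Wfdc18 had 2 UMIs in GL261 against 249 in GL261-GSCs (ratio 62.5, 17.1 to 519), with 2.75 CPM in replicate 1 and 0.165 to 0.469 CPM in the others. Without replicate 1 the Wfdc18 ratio was 23.03 (6.13 to 194). None of the 3 calls held without GL261 replicate 1 or 2 (adjusted p from 0.0718 to 0.205), nor without GL261-GSCs replicate 3 (0.0521 to 0.0647). Slpi and Wfdc18 also lost theirs without GL261-GSCs replicate 2 (0.0538 and 0.0546), and Wfdc18 also with barcodes of at least 1000 UMIs (0.0505) and with all barcodes (0.055). Of 9 kelch domain genes, 7 were tested and 2 rose, with a median of 0.06. That is 28.6% called, near the 29.9% of all genes. They were Klhdc3 (0.93 ± 0.13, adjusted p = 0.0028 by edgeR) and Klhdc10 (0.52 ± 0.16, adjusted p = 0.0453). Klhdc8b, the gene most like Klhdc8a by name, stood at 1.3 and 1.14 CPM in GL261 and at 1.02 to 4.26 CPM in GL261-GSCs. Klhdc3 was at 0.0517 without GL261 replicate 1, and Klhdc10 lost its call without either GL261 replicate (0.289 and 0.188) and without GL261-GSCs replicate 1 or 2 (0.0544 and 0.0589), and was at 0.0763 with no filter on low counts, 0.0522 with barcodes of at least 1000 UMIs and 0.0796 with all barcodes.

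The genes around the 7 on their chromosomes moved in both directions. Of the 28 nearest protein-coding genes, 2 on each side of each gene, 15 were tested, 4 rising and 5 falling, with a median of 0.07. These are 60% of the tested neighbours, where 29.9% of all genes were called. Among them Klra6, Fxyd7 and Atp2c2 entered the test through GL261 alone and Lad1 through GL261-GSCs alone, so the 60% leans on the filter. Falls lay beside 4 of the 7. Nuak2, a kinase gene 8769 bases beyond Klhdc8a, fell from 5.9 and 7.01 CPM to between 0.166 and 0.467 CPM (log2 -4.21 ± 0.39, adjusted p = 5.6e-04 by edgeR). Atp2c2, a calcium and manganese pump gene 11787 bases beyond Wfdc1, fell from 0.652 and 1.04 CPM to between 0.0275 and 0.0625 CPM (-4.39 ± 0.44, adjusted p = 7.5e-04). Klra6 lies 16777 bases from Klra4, and Fxyd7 and Fxyd1 lie 32 and 9197 bases from Fxyd5. Fxyd7 ends just before Fxyd5 begins on the same strand, and whether reads running past its end were counted for Fxyd5 was not tested. Beyond the end of Tnnt2, Pkp1 and Igfn1 had too few UMIs to test, with 12 and 1 in GL261 against 3 and 0 in GL261-GSCs. The genes before the start of Tnnt2 went the other way: Tnni1, 25365 bases off, and Lad1, 3012 bases off (1.38 ± 0.42, adjusted p = 0.0483 by edgeR), rose. Tmcc2 beside Klhdc8a (1.24 ± 0.30, adjusted p = 0.0223) and Clcn6 beside Nppb (1.16 ± 0.26, adjusted p = 0.0176) also rose, and the tested neighbours of Aqp5 were not called. Lad1 was called under 5 of 14 alternatives, and its highest adjusted p was 0.252 without GL261 replicate 2. Tmcc2 was at 0.137, 0.159 and 0.0538 without GL261 replicate 1, GL261 replicate 2 and GL261-GSCs replicate 3, and Fxyd1 and Klra6 as above. Clcn6 was at 0.083 without GL261 replicate 1 and at 0.16 without GL261 replicate 2.

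**Figure D5:**
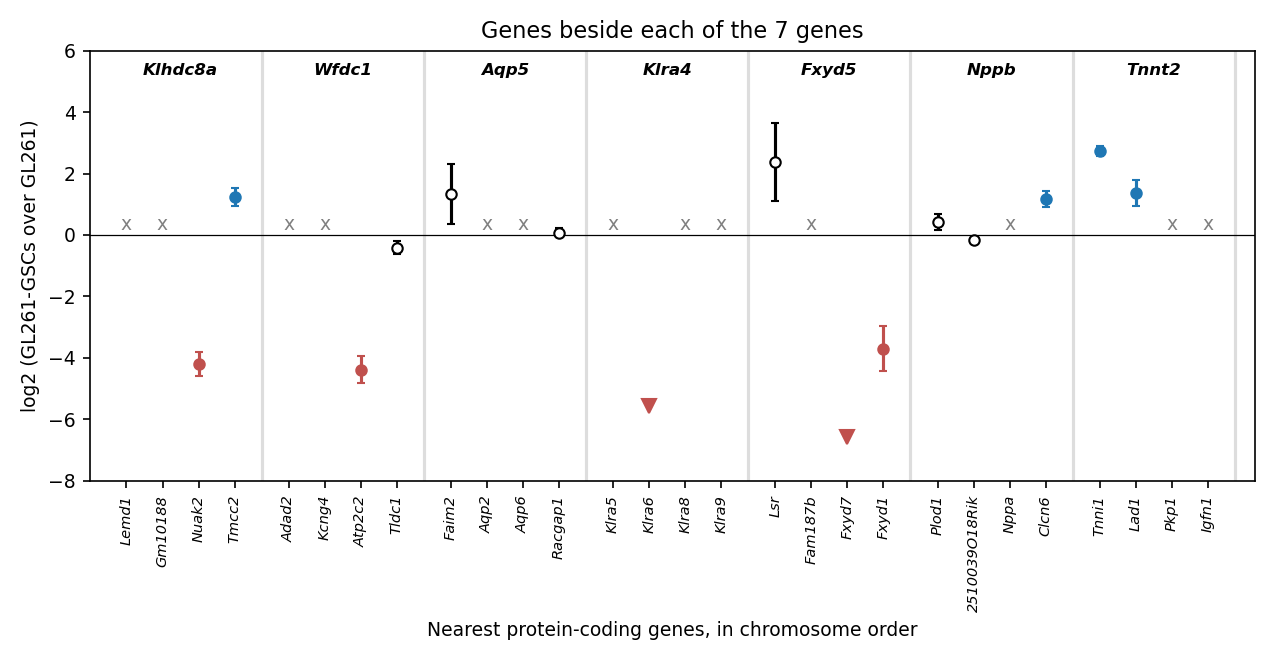
Log2 fold change, GL261-GSCs over GL261, of the 28 nearest protein-coding genes of the 7 genes, with bars of 1 standard error; filled red and blue circles were called lower and higher, open circles were not called, triangles are bounds for genes with no UMI in GL261-GSCs, and x marks genes with too few UMIs to test. Falls stand beside Klhdc8a, Wfdc1, Klra4 and Fxyd5 and rises beside Klhdc8a, Nppb and Tnnt2.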

How the data were processed

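The authors deposited unnormalized UMI counts for every gene in every barcode, filtered or not, as Cell Ranger 4 wrote them (per the file headers). The genome build mm10 is named in the submitters' processing notes. Aligner settings, the annotation release and how reads shared by similar genes were assigned were not given in the sources used here. Cells or nuclei were captured, and the labels do not say which. The 7 genes and all gene lists were chosen with earlier results of these data known.

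A barcode was called a cell when its UMIs reached 10% of the 99th percentile among the 3000 largest barcodes, with 500 genes or more and less than 10% mitochondrial UMIs. This set a minimum of 2060 to 3274 UMIs per library. Doublets were not removed. Counts were summed over the cells of each library and compared with the edgeR 4.0.16 quasi-likelihood test in R 4.3.3 (TMM, filterByExpr, Benjamini-Hochberg, 2-sided, no block), checked on simulated data, with DESeq2 1.42.0 as an alternative. P-values measure only the spread between these libraries. The standard error is the fold change divided by the square root of the test's F statistic. No fitted fold is given for genes with 0 to 3 UMIs in a group. Shares of cells have exact binomial (Clopper-Pearson) intervals at 95%, from scipy 1.17.1, and a share of 0 allows up to 3 cells. Shares were also taken with cells thinned to 2000 UMIs and correlations with cells thinned to 5000. The level of free RNA came from small barcodes of 100 UMIs or more but fewer than 1000. The lists covered the relatives and neighbours of the 7 genes, and contractile, YAP target, immediate early, mitotic, S phase, interferon, hypoxia and mesenchymal genes for correlations. Some genes of the FXYD and pump list are not reported here, for a reason other than their values, so its counts are not those of the full list. Markers of natural killer cells, cardiomyocytes, epithelium, macrophages, fibroblasts and oligodendrocyte precursors were summed. Genes named were, per list, up to 3 called genes in each direction with the largest fold, and the 3 genes most correlated with each of the 7. Npr1, Nppa, Aqp4, Tnni3, Tnnc1, Nuak2, Clcn6, Tyrobp, Hcst, Klhdc8b, Actg2, Acta2, Tagln, Fos, Rrm2, Slc2a1 and the genes at 0 UMIs were named after their values were seen. Identifiers were matched to GENCODE M21 without version for 54409 of 54446 genes. Deviations of same-numbered libraries of the groups from their group means had correlations of -0.00712 and 0.0705. The deviations of the 2 GL261 libraries mirror each other, so this check cannot exclude a pairing. The libraries were not treated as pairs. Alternatives covered scaling, filters, cell calling, the test, thinning and each library left out.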

Additional observations from a re-analysis of the deposited data

Results flagged for a closer look

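In 48 groups of 4 GL261-GSCs libraries checked, 4 had a library far from the others by Dixon's criterion, which chance alone meets in about 1 in 20 groups. Atp2c2, beside Wfdc1, stood at 0.0625 CPM in replicate 3 against 0.0275 to 0.0303 CPM in the others, values of a few UMIs. Lad1, beside Tnnt2, stood at 0.442 CPM in replicate 2 against 0.247 to 0.275 CPM. Wfdc18 stood at 2.75 CPM in replicate 1 against 0.165 to 0.469 CPM. The share of cells with Nppb was 0.0852% in replicate 2 against 0 to 0.0138%, and free RNA of that library alone would give 0.0842%.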

How the results depend on the processing

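All 7 genes lay at least 20 times lower in the highest GL261-GSCs library than in the lowest GL261 library under each of the 10 alternatives run for their levels. The numbers of called genes depended on the libraries. Leaving out 1 library in turn gave 1817 to 6193 called genes in all, 0 to 2 in the natriuretic list, 6 to 12 in the thin filament list, 1 to 4 in the FXYD and pump list, 0 to 1 in the natural killer receptor list, 0 to 3 in the whey acidic protein list, 0 to 2 in the kelch list and 4 to 9 among neighbours. With library size as the only scaling, the natriuretic list had 1 call. With no filter on low counts or with all barcodes, the natural killer receptor list had 2 calls, and the kelch list had 1 call under these and with barcodes of at least 1000 UMIs. Of the 33 called genes named from the lists, 14 kept their call under all 14 alternatives, the 19 others each lost it without a GL261 replicate, and 5 of those also under a setting that left out no library. The fit with a replicate block called 6512 genes in place of 5514, and Lad1 (adjusted p = 0.0614) was the only named gene to lose its call there. GL261-GSCs replicates 3 and 4 have no GL261 library of the same number. In that fit the group change therefore rested on replicates 1 and 2 of each group alone. With that block 3 S phase genes were higher and 1 lower (median 0.11), 2 hypoxia genes higher and 1 lower, 2 immediate early genes higher and 3 lower, 4 interferon genes lower, and 1 mitotic gene higher and 2 lower. None of the 33 changed direction, and Npr1, which was not called, lay between -0.0013 (without GL261-GSCs replicate 2) and 0.26 (without replicate 4) when 1 library was left out, against 0.16 with all. The median over the 7 genes of the mean share of GL261 cells was 9.38% at 2000 UMIs, 20.9% at 5000, 39.1% without thinning and 5.32% with barcodes of at least 1000 UMIs thinned to 1000. The median correlation between the 7 genes was 0.0277, 0.0942 without thinning, 0.026 by Spearman's rho and 0.0255 to 0.0267 in each GL261 library alone. Depth limits statements on Klra4, Klhdc8a and Nppb in GL261-GSCs, where single UMIs set the ratio, and the cause of calls lost with a library was not tested.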

Other observations

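Of the lists that served for correlations, the YAP target, contractile and mesenchymal ones were mostly lower in GL261-GSCs by the same edgeR test, beside 14.1% of all genes tested. All 7 YAP target genes were lower in GL261-GSCs (median log2 -3.51), as were 9 of 11 contractile genes (median -2.25) and 9 of 10 mesenchymal genes (median -3.94). These lists hold genes that entered the test through GL261 alone, Tagln and Ly6a among them, so the filter favoured their falls. Actg2, the enteric smooth muscle actin, was the contractile gene that rose, from 0.237 and 0.232 CPM to between 18.3 and 29.4 CPM (log2 6.74 ± 0.32, adjusted p = 6.3e-05 by edgeR), while Acta2 and Tagln fell by 9.24 and 9.38 on the log2 scale (log2 -10.19 for Acta2 without GL261-GSCs replicate 2 and -10.58 for Tagln without replicate 3). Among interferon genes 3 of 6 were lower, with 0 without GL261 replicate 1, 2 without GL261 replicate 2, 5 without GL261-GSCs replicate 1 and 1 without GL261-GSCs replicate 2, 3 or 4. In their calls the other lists lay nearer to the share of all genes, 14.1% lower and 15.8% higher, although the hypoxia median was 1.09. Among immediate early genes 2 of 7 were lower (1 without either GL261 replicate or without GL261-GSCs replicate 3) and 1, Fos, was higher. Among S phase genes 1 of 10, Rrm2, was lower, and it lost its call without GL261 replicate 1 (adjusted p = 0.0545) or 2 (0.103). Of 7 tested hypoxia genes Slc2a1 was higher (log2 1.09 ± 0.34, adjusted p = 0.0499 by edgeR), and DESeq2 size factors in place of TMM ended that call (0.052), as did 6 other alternatives. By the DESeq2 test 3 hypoxia genes were higher, and 2 with no filter on low counts or without GL261-GSCs replicate 1. All tested hypoxia genes but Car9 lay higher in GL261-GSCs replicates 3 and 4 than in 1 and 2. Bnip3, not called, had 19.7, 22.4, 157 and 209 CPM there, against 10.1 and 13.4 in GL261. None of 10 mitotic genes was called by edgeR with TMM, 2 were at an unadjusted p under 0.05, and 2 were called by DESeq2. By edgeR 1 mitotic gene was called with library size as the only scaling, 1 when every barcode was summed, and 1 when GL261-GSCs replicate 4 was left out. With library size alone the mitotic median went from -0.06 to 0.09 and the S phase median from -0.08 to 0.06.

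Of the markers of other cell types, the 5 fibroblast markers summed to 252 and 287 CPM in GL261 and to 11 to 26.9 CPM in GL261-GSCs, nearly all of it Col1a1. The 5 markers of oligodendrocyte precursors summed to 505 and 563 CPM in GL261 and to 1291 to 2300 CPM in GL261-GSCs. The higher sums came from Olig1, Olig2 and Pdgfra: Sox10 had 22317 and 21621 UMIs in GL261 and 11984 to 25964 in GL261-GSCs, and Cspg4 had 11102 and 12087 against 4432 to 11850. Their part in the levels of the 7 genes was not tested.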
